A study of Mus musculus with 20 samples.

Results

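The genes described here were the cytochrome P450 families 1 to 4 of the mouse. They were chosen by name alone, as every gene whose symbol is Cyp, a digit from 1 to 4, a letter and a number, and 76 of the 50559 genes in both count tables met this rule. They fell into 21 subfamilies, and all 76 were protein-coding entries of the GENCODE annotation used for positions. These enzymes are heme monooxygenases of the endoplasmic reticulum that take electrons from the reductase Por and add oxygen to lipophilic substrates. The CYP1, CYP2 and CYP3 families handle mostly drugs, toxicants and steroids, and the CYP4 family hydroxylates fatty acids at their far end. In normal liver most of those expressed are hepatocyte genes, many of them strongest around the central vein. Many are switched on by the aryl hydrocarbon receptor, the nuclear receptors CAR, PXR and PPARα and liver factors such as HNF4α.

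RNA had been sequenced from 20 libraries of 20 mice, 5 libraries in each of 4 groups. The mice were C57BL/6J females injected at 6 to 8 weeks of age by hydrodynamic gene transfer, in which a large volume of plasmid solution in the tail vein transfects a fraction of the hepatocytes, together with the Sleeping Beauty transposase SB100X. Aldafermin + MYC tumors arose after plasmids for MYC (driven by the EF1a promoter) and for Aldafermin, an engineered analog of the hormone FGF19, and FGF19 + MYC tumors after MYC and human FGF19. sgTrp53 + MYC tumors arose after MYC and a CRISPR plasmid directed at Trp53, and the labels give this condition in the sample titles while their treatment field reads None. The control livers are labelled as healthy and non treated, whereas the study also describes its control livers as given a plasmid for a red fluorescent protein. No group received a hormone without MYC. All tumors thus carried the MYC plasmid and the livers did not, and the tumors were single snap frozen nodules. Mice had been fasted for 5 h. The 2 hormone groups together are called hormone tumors below.

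Gene counts summed to between 18004977 and 66354724 a library. The 5 sgTrp53 + MYC libraries came as a separate table and were the deepest, and reads that fell on more than 1 gene made up 11.1% to 14.6% of their reads against 3.03% to 6.30% in the other libraries. Table and group cannot be told apart in any comparison with these tumors. Hepatocyte markers (Alb, Apoa1, Ttr, Apob, Tat and Cps1) were detected in every tumor, at a summed level of 3522 to 27523.7 CPM, which are read counts scaled to a common library size and by the TMM method here and below, against 174918 to 222062.6 CPM in livers. Trp53 transcript, means of 5 with SD, stood at 46.8 ± 22.6 CPM in sgTrp53 + MYC tumors, 138 ± 32.5 CPM in Aldafermin + MYC tumors, 139.5 ± 17.9 CPM in FGF19 + MYC tumors and 32.8 ± 2.98 CPM in livers. Some tumor libraries stood apart in the P450 genes. Over the 52 members that were lower in hormone tumors, Aldafermin + MYC replicate 4 and FGF19 + MYC replicate 5 had a median of 7.13% and 10.3% of the liver level, whereas the other 4 Aldafermin + MYC libraries had 0.199% to 0.501% and the other 4 FGF19 + MYC libraries 0.621% to 2.41%. In sgTrp53 + MYC tumors the median was 5.66% in replicate 1, 2.52% in replicate 3 and 0.487% to 0.911% in the other 3. The Kupffer cell marker Clec4f was highest in its group in Aldafermin + MYC replicate 4 (36.3 CPM), FGF19 + MYC replicate 5 (47.2 CPM) and sgTrp53 + MYC replicate 1 (13.2 CPM), against 135.9 to 189.4 CPM in livers. Of the 5 Kupffer cell and macrophage markers (Adgre1, Clec4f, Csf1r, Cd68 and Vsig4), 2, 4 and 3 were highest of their group in these libraries, and their sum was 207, 211 and 93.8 CPM there against 83.01 to 298 CPM, 97.1 to 150.1 CPM and 55.8 to 103 CPM in the other libraries of the same groups and 278 to 393 CPM in livers. Of the 6 hepatocyte markers 3, 5 and 3 were highest there, with a sum of 21696, 27524 and 10338 CPM, above the 8823 to 15794 CPM, 9542 to 13724 CPM and 3522 to 6690.3 CPM of the other libraries. The part of adjoining liver tissue in these levels was not tested. Values with these 3 libraries left out, a choice made after seeing the data and by Clec4f alone, are given below for the members described in most detail. Leaving them out moved the fold change by over 1.5 times in 35 of the 53 members called in hormone tumors and in 23 of the 54 called in sgTrp53 + MYC tumors, each time further from the livers. Aldafermin + MYC replicate 4 alone did so for 30, FGF19 + MYC replicate 5 alone for 20 and sgTrp53 + MYC replicate 1 alone for 23.

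Transcripts of the members as a whole were far lower in tumors than in livers. Summed over all 76, they took 2.01% to 3.00% of the reads on genes in livers and 0.0526% to 0.543% in tumors, so that the groups did not overlap. The summed level was 40010.2 ± 5956 CPM (SD, n = 5) in livers, 1085 ± 1165 CPM (SD, n = 5) in Aldafermin + MYC tumors, 1663 ± 1678 CPM (SD, n = 5) in FGF19 + MYC tumors and 1290 ± 992 CPM (SD, n = 5) in sgTrp53 + MYC tumors. In bulk tissue, fewer hepatocytes and less RNA of these genes per hepatocyte cannot be told apart. Of the 76 members, 56 reached 1 CPM in at least 5 libraries and were tested, and 20 did not. Among the 56 tested, 6 (Cyp1a1, Cyp2c39, Cyp2c55, Cyp2g1, Cyp2j9 and Cyp2r1) passed this filter only through the livers and had to differ from them. Their calls against livers are no evidence of a difference, and the counts below do not apply to all members.

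Among the tested members, 52 were lower and 1 was higher in hormone tumors than in livers by edgeR's quasi-likelihood test at an adjusted p under 0.05, where of all 14333 genes tested 34.5% were lower and 39.2% higher. In sgTrp53 + MYC tumors 53 were lower and 1 higher, against 33% and 36.9% of all genes. In either direction 73.7% of all genes were called in the first comparison and 69.9% in the second. All 52 that were lower in hormone tumors were also lower in sgTrp53 + MYC tumors, but both comparisons share the same livers. The median log2 fold change over the tested members was -5.36 in hormone tumors and -5.03 in sgTrp53 + MYC tumors, whereas the median over all genes tested was 0.10 and 0.07. For 51 of the 56 tested members, all 15 tumors lay below the lowest liver, as they did for 21.9% of all genes tested. Without the 6 members that passed through the livers alone, 46 of 50 were lower in hormone tumors, 47 of 50 in sgTrp53 + MYC tumors, and 45 of 50 had all 15 tumors below the lowest liver. With library size alone as the scale, the median over all genes moved to 0.94 and 0.95, and a member's change is best read against that shift. Not all of the members fell to the same depth: 26 of the 52 were under 1% of the liver mean in at least 8 of the 15 tumors, and 6 others (Cyp2c68, Cyp2d9, Cyp2d22, Cyp2d26, Cyp3a13 and Cyp4f13) stayed at or above 5% in all 15. These sets were chosen after their values were seen.

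**Figure D1:**
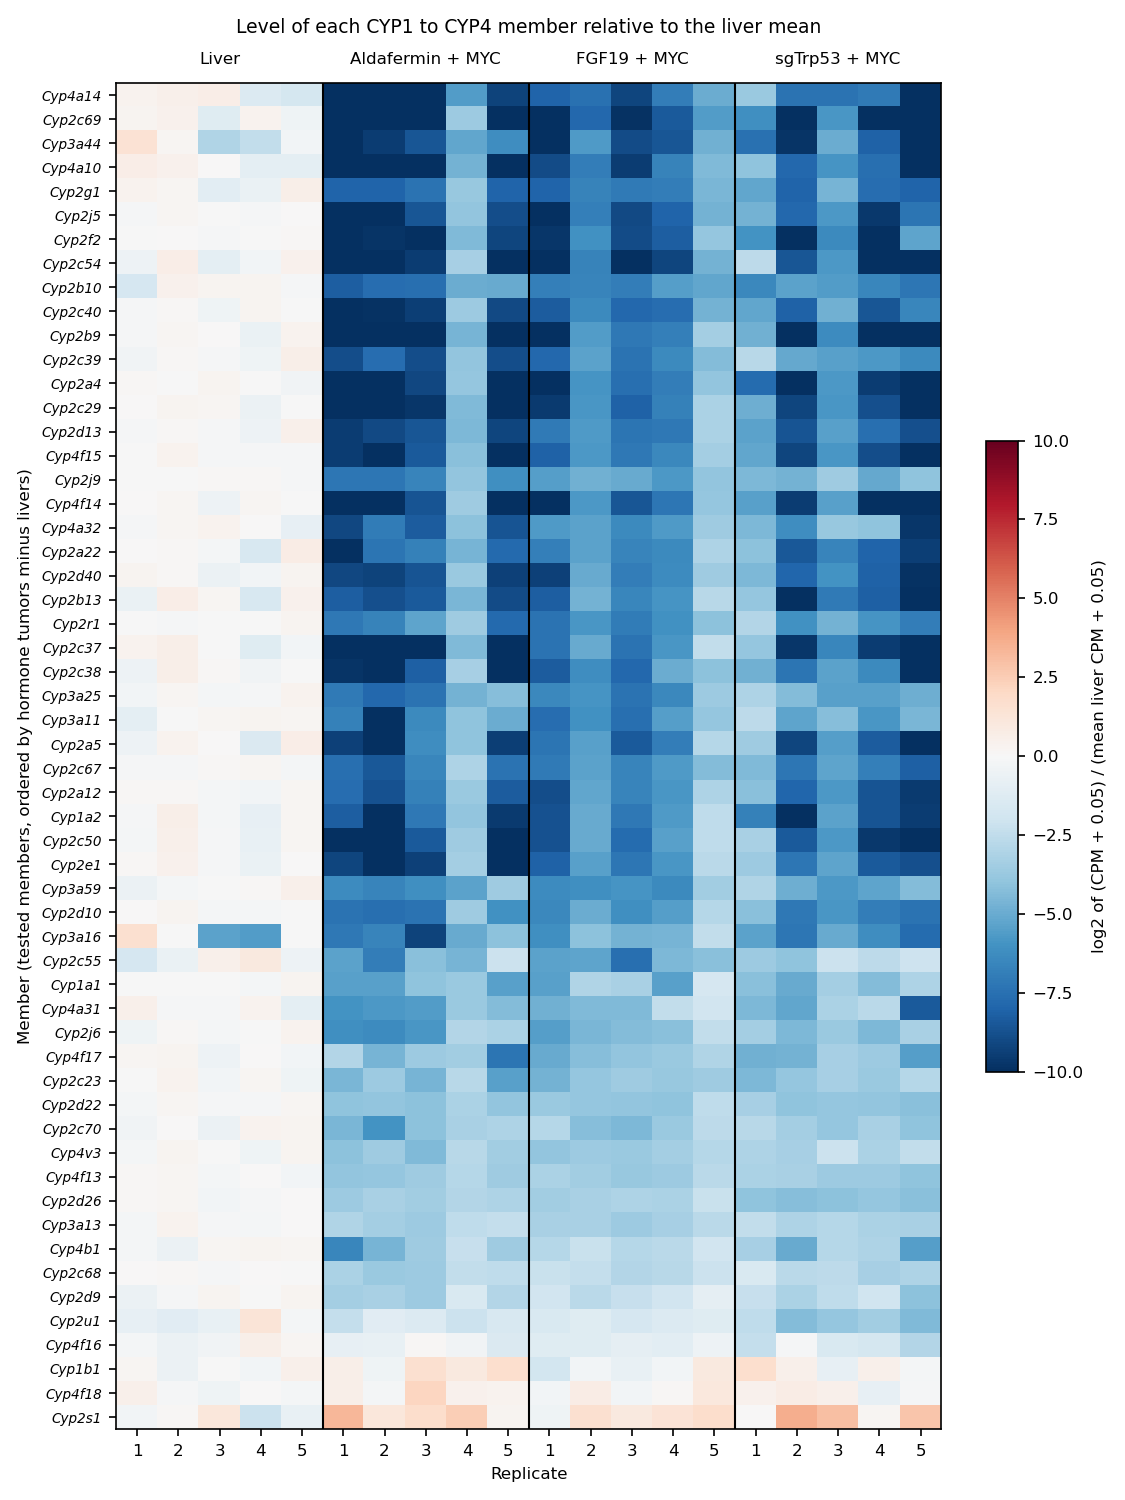
Level of each tested member (rows, ordered by the log2 fold change between hormone tumors and livers) in each library (columns, by group and replicate), as log2 of CPM + 0.05 over the liver mean + 0.05. Rows at the top are deep blue in most tumors but paler in Aldafermin + MYC replicate 4, FGF19 + MYC replicate 5 and sgTrp53 + MYC replicate 1, the rows from Cyp2d22 to Cyp2d9 are mostly of an even, lighter blue, and Cyp2s1 in the last row is red in most tumors.

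**Figure D2:**
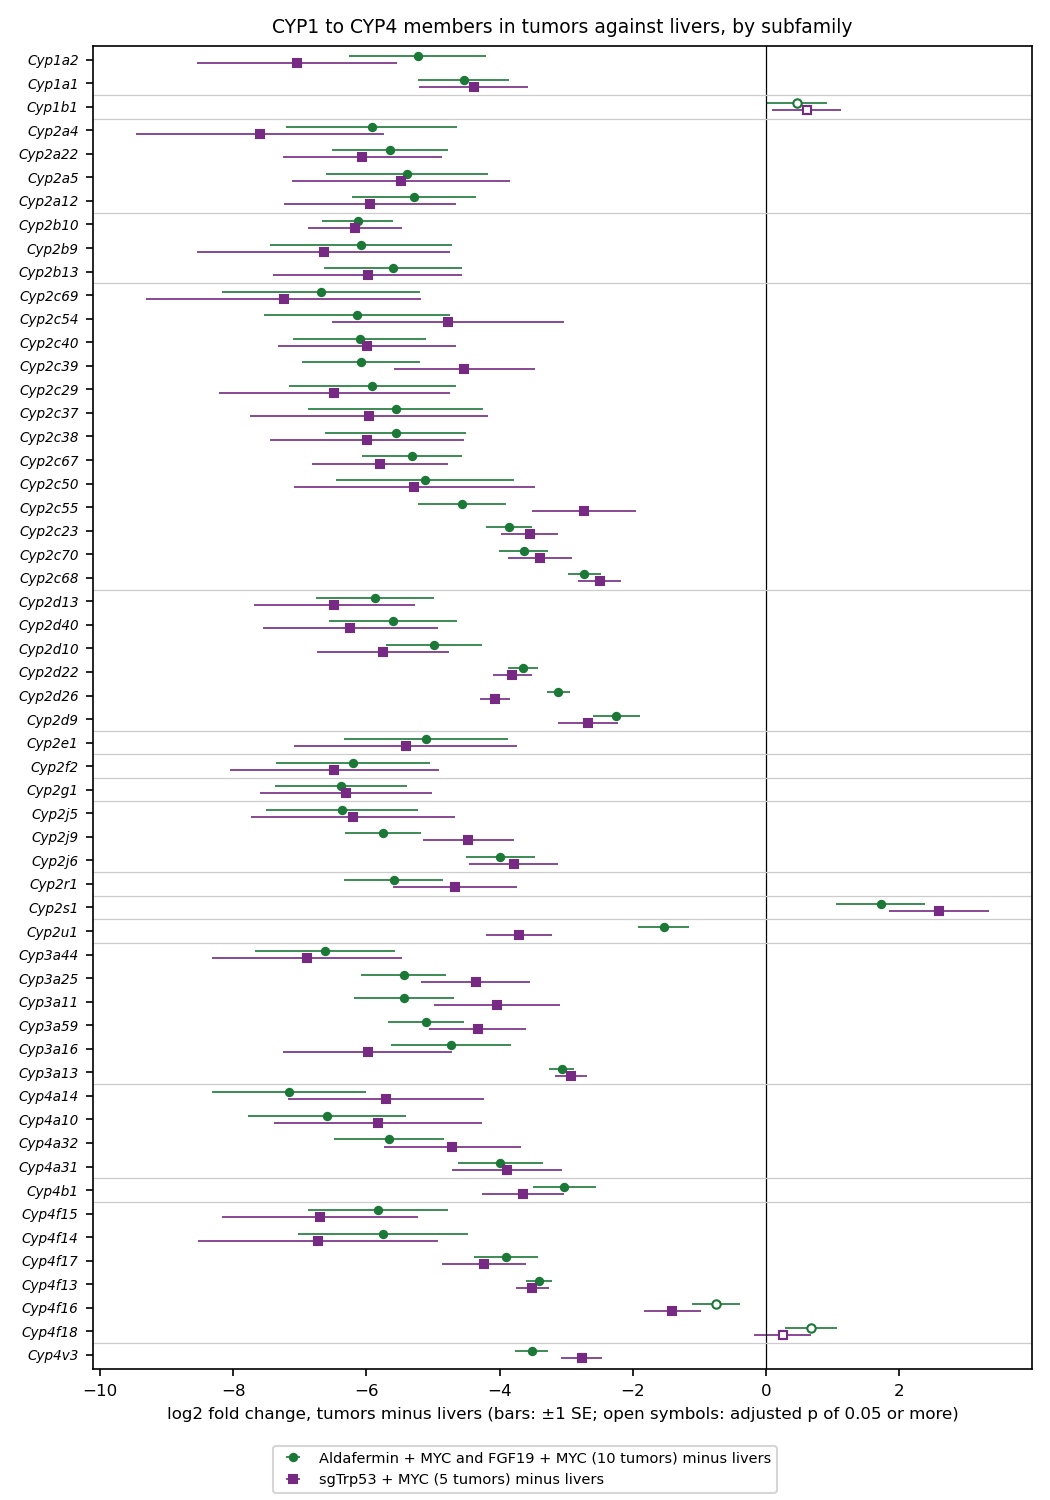
Log2 fold change of each tested member in hormone tumors (circles) and in sgTrp53 + MYC tumors (squares) relative to livers, with 1 SE on each side, grouped by subfamily. Values below 0 are lower in tumors. Cyp2s1 lies at 1.72 and 2.60, and Cyp2d26 has short bars. Open symbols mark an adjusted p of 0.05 or more.

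In the CYP1 family, whose genes respond to the aryl hydrocarbon receptor, Cyp1a2 was lower in tumors, Cyp1b1 did not pass the test, and Cyp1a1 entered the test only through its liver level, so that its difference is described without a test. Cyp1a2, the constitutive hepatic CYP1 that oxidizes caffeine and arylamines, was at 725, 1212, 695, 449.6 and 926 CPM in livers. It was at 2.58, 0.273, 5.5, 51.7 and 0.982 CPM in Aldafermin + MYC tumors, 1.9, 24.1, 5.52, 15.8 and 139.6 CPM in FGF19 + MYC tumors and 7.3, 0.756, 19.4, 1.95 and 1.04 CPM in sgTrp53 + MYC tumors. Every tumor lay below every liver, and the replicates 4 and 5 named above were the highest of their groups. For Cyp1a2 this gave a log2 fold change of -5.23 ± 1.03 (SE) in hormone tumors (adjusted p = 1.4e-04) and -7.04 ± 1.50 (SE) in sgTrp53 + MYC tumors (adjusted p = 3.6e-04), or -8.18 there without sgTrp53 + MYC replicate 3. Cyp1a1, the inducible enzyme for polycyclic hydrocarbons, was already low in livers at 2.1 ± 0.249 CPM (SD, n = 5). It was at 0 to 0.633 CPM in tumors, which corresponds to 6 counts in all over the 5 Aldafermin + MYC libraries, 28 over the FGF19 + MYC libraries and 35 over the sgTrp53 + MYC libraries. Cyp1b1, found mostly in stroma and vessels, was at 0.733 to 1.59 CPM in livers and 0.279 to 3.7 CPM in tumors with overlapping groups, and its log2 fold change was 0.46 ± 0.46 (SE) in hormone tumors (adjusted p = 0.374) and 0.61 ± 0.52 (SE) in sgTrp53 + MYC tumors (adjusted p = 0.301).

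The genes of the Cyp2a, Cyp2b, Cyp2f, Cyp2g, Cyp2s and Cyp2t subfamilies stand together on chromosome 7 (GRCm39, chr7:25501895-26858093). Of these 13 members 10 were tested, of which 9 were lower in hormone tumors and 1, Cyp2s1, was higher. Among the 9, Cyp2g1 had passed through the livers alone. Of all genes tested, 34.5% were lower and 39.2% higher. Cyp2a4, a steroid hydroxylase of female liver, was at 1843 to 2838 CPM in livers, 0.34, 0.422, 4.35, 162 and 0.73 CPM in Aldafermin + MYC tumors, 2.23, 40.1, 12.7, 20.04 and 155 CPM in FGF19 + MYC tumors and 11.6, 0.742, 45.3, 3.32 and 0.691 CPM in sgTrp53 + MYC tumors. The groups of tumors did not reach the livers, but within a group single libraries stood far above the rest. In sgTrp53 + MYC tumors Cyp2a4 had the lowest log2 fold change of the tested members, -7.60 ± 1.86 (SE) (adjusted p = 0.00125), which was -9.20 without its replicate 3. In hormone tumors it was -5.92 ± 1.28 (SE) (adjusted p = 3.5e-04) and -8.83 without the 3 libraries with the highest Clec4f. Cyp2a5, the coumarin and nicotine hydroxylase, was at 598 to 2604 CPM in livers and 0.0744 to 223 CPM in tumors (log2 fold change -5.39 ± 1.22 (SE), adjusted p = 5.5e-04, and -7.28 without the 3 libraries). Cyp2a4 and Cyp2a5 share 4.22% and 5.74% of their 150-base windows with other members, so a part of their reads cannot be placed with certainty.

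Cyp2b10, the best known target of CAR, was low in every tumor. It was at 13.8, 59.1, 53.1, 52.1 and 40.4 CPM in livers, 0.0972, 0.174, 0.187, 1.38 and 1.26 CPM in Aldafermin + MYC tumors, 0.335, 0.401, 0.314, 0.91 and 1.16 CPM in FGF19 + MYC tumors and 0.445, 1.03, 0.853, 0.422 and 0.246 CPM in sgTrp53 + MYC tumors. The highest tumor thus held 3.17% of the liver mean. Its log2 fold change was -6.13 ± 0.53 (SE) in hormone tumors (adjusted p = 3.9e-09) and -6.17 ± 0.71 (SE) in sgTrp53 + MYC tumors (adjusted p = 2.5e-07). The female-biased Cyp2b9, named after its values were seen, had a log2 fold change of -6.08 ± 1.37 (SE) in hormone tumors (-9.89 without the 3 libraries), with a range of 0.0243 to 87.9 CPM over the tumors. Cyp2f2, which activates naphthalene and is the periportal member of the lists used here, was at 1449 to 1708 CPM in livers and 0.48 to 107 CPM in tumors, and its log2 fold change was -6.20 ± 1.15 (SE) and -6.48 ± 1.57 (SE) in hormone and sgTrp53 + MYC tumors, with -7.08 in the latter without replicate 5.

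Cyp2s1, an enzyme of epithelia that is scarce in liver, was the 1 member called higher in tumors. It was at 0.861, 1.17, 2.43, 0.205 and 0.598 CPM in livers, 10.7, 2.43, 3.63, 6.12 and 1.26 CPM in Aldafermin + MYC tumors, 0.781, 3.31, 2.15, 2.79 and 3.76 CPM in FGF19 + MYC tumors and 1.05, 13.9, 8.75, 1.19 and 7.6 CPM in sgTrp53 + MYC tumors. Liver replicate 3 overlapped the lower tumors of every group. Exons of Cyp2s1 overlap Gm26707 on the other strand, which the counting may not have kept apart. Cyp2s1 had a log2 fold change of 1.72 ± 0.67 (SE) in hormone tumors (adjusted p = 0.0269) and 2.60 ± 0.75 (SE) in sgTrp53 + MYC tumors (adjusted p = 0.00439). In hormone tumors its call was lost when Aldafermin + MYC replicate 1 (1.46, adjusted p = 0.0512) or liver replicate 1, 4 or 5 was left out (1.66, 1.47 and 1.56, adjusted p = 0.0554, 0.0669 and 0.0658), and in sgTrp53 + MYC tumors it held in every such fit. sgTrp53 + MYC replicate 2, the tumor with the highest Cyp2s1, also held the cholangiocyte keratins Krt19 and Krt7 at 191.0 and 80.9 CPM, against at most 2.87 CPM in livers. Whether duct-like cells had a part in the Cyp2s1 level was not tested. The promoter of Cyp2s1 is shown because Cyp2s1 was the 1 member called higher, a count that ran from 0 to 3 in hormone tumors and from 1 to 3 in sgTrp53 + MYC tumors over the alternative fits (3 with library size alone as the scale). It holds none of the 4 motifs searched on both strands, whose letters are given below with their shares. It runs from 250 bases before to 50 bases after the RefSeq start (GRCm38.p6, chr7:25816476-25816775, minus strand).
Cyp2s1: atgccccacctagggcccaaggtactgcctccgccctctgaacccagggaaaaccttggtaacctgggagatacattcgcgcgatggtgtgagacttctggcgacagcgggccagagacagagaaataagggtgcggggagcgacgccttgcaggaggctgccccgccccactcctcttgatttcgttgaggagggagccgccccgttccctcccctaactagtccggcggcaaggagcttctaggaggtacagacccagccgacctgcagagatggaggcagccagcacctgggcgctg

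The Cyp2c subfamily, which oxidizes drugs, arachidonic acid and bile acids, is the largest, with 15 members on chromosome 19 (GRCm39, chr19:38995462-44017653). All 13 tested, among them Cyp2c39 and Cyp2c55, which had passed through the livers alone, were lower in both kinds of tumor, from -6.68 (Cyp2c69) to -2.73 (Cyp2c68) on the log2 scale in hormone tumors. Among members only Cyp2c40 lies between the genes with these extreme values. The share of all genes tested that were lower was 34.5% in hormone tumors and 33% in sgTrp53 + MYC tumors. Cyp2c69, which is female-biased, was at 1939, 2140.3, 680.0, 2082 and 1199.7 CPM in livers, 0.0729, 0, 0.0534, 130.0 and 0.814 CPM in Aldafermin + MYC tumors, 0.447, 6.99, 1.66, 4.7 and 33.3 CPM in FGF19 + MYC tumors and 23, 0.7, 27.9, 0.749 and 0.967 CPM in sgTrp53 + MYC tumors. Every tumor lay below every liver, and Aldafermin + MYC replicates 1 to 3 were at or near 0 while replicate 4 was the highest tumor of all. The log2 fold change was -6.68 ± 1.48 (SE) in hormone tumors (adjusted p = 4.7e-04), and without the 3 libraries with the highest Clec4f it was -10.81 (adjusted p = 2.0e-07). In sgTrp53 + MYC tumors it was -7.24 ± 2.06 (SE) (adjusted p = 0.00421), or -7.99 without replicate 3.

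Cyp2c68 was at 752, 812, 689.5, 773 and 714 CPM in livers, 85.3, 56.3, 59.7, 134 and 128 CPM in Aldafermin + MYC tumors, 162, 142, 101, 108 and 173 CPM in FGF19 + MYC tumors and 256, 118, 125, 72.9 and 88.3 CPM in sgTrp53 + MYC tumors. Every tumor lay below every liver, and every tumor kept 7.52% to 34.2% of the liver mean. Its log2 fold change was -2.73 ± 0.25 (SE) in hormone tumors (adjusted p = 7.9e-09) and -2.50 ± 0.32 (SE) in sgTrp53 + MYC tumors (adjusted p = 8.7e-07), and without the 3 libraries it was -2.87 and -2.89. Cyp2c69 and Cyp2c40 share 17.9% and 17.3% of their 150-base windows with other members, and Cyp2c68 shares 6.47%, so their counts are uncertain to that extent. The promoters of this pair are shown because both hold the same HNF4 site and differ in what remained of their transcripts. Capitals mark the HNF4 site, searched as CAAAGTCCA. In Cyp2c69 the TATA box, with the letters TATAAA, is in capitals as well. In Cyp2c68 the aryl hydrocarbon receptor core GCGTG is, as its reverse complement. Both runs cover 250 bases before to 50 bases after the RefSeq start (GRCm38.p6, chr19:39741052-39741351, minus strand, and chr19:39886720-39887019, minus strand).
Cyp2c68: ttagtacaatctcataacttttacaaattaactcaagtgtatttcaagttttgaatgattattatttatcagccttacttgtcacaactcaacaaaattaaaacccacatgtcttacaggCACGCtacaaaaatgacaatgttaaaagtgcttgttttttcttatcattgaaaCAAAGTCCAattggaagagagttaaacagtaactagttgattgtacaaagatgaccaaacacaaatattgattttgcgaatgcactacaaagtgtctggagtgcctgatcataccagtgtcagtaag
Cyp2c69: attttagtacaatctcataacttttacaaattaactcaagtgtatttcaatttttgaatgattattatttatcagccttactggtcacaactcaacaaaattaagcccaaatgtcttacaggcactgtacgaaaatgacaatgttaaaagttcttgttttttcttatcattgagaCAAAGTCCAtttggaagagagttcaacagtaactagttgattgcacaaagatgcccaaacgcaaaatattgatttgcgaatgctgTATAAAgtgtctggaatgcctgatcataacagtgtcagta

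Of the 76 members, 62 had a RefSeq promoter entry, with 69 promoters of 300 bases in all. CAAAGTCCA was found in 11.6% of them (8, of Cyp2c40, Cyp2c65, Cyp2c67, Cyp2c68, Cyp2c69, Cyp2c70, Cyp3a11 and Cyp3a16) and in 0.475% of all 32851 RefSeq promoters of that length, and TATAAA in 39.1% and 13.6%. CACGTG (the E-box bound by MYC and other factors) was found in 2.9% of the member promoters and 7.15% of all, and GCGTG in 20.3% and 32.4%. GCGTG and CACGTG can overlap, and paralogs share sequence by descent, so the members are not independent of each other. A match is a description of the letters and not a bound site. Cyp2c70, which makes the muricholic acids of rodent bile and carries CAAAGTCCA, was at 558, 736, 480.4, 892 and 861 CPM in livers, 30.4, 11, 40.7, 73.3 and 82.4 CPM in Aldafermin + MYC tumors, 97.6, 37.8, 31.7, 53 and 116 CPM in FGF19 + MYC tumors and 106, 66.5, 47.5, 72.7 and 44.1 CPM in sgTrp53 + MYC tumors. All tumors lay below the livers, at a log2 fold change of -3.64 ± 0.37 (SE) in hormone tumors (adjusted p = 3.6e-08) and -3.39 ± 0.48 (SE) in sgTrp53 + MYC tumors (adjusted p = 3.6e-06). Cyp2c23, an arachidonic acid epoxygenase, had log2 fold changes of -3.86 and -3.55, and Cyp2c29, Cyp2c37 and Cyp2c54, which stand on both the CAR and PXR and the pericentral list, had -5.91, -5.56 and -6.14 in hormone tumors, or -8.96, -8.91 and -9.94 without the 3 libraries. The genes Cyp2c23, Cyp2c37 and Cyp2c54 were named after their values were seen.

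The 9 Cyp2d genes, relatives of the human debrisoquine hydroxylase, lie on chromosome 15 (GRCm39, chr15:82254727-82678509), and the 6 tested were lower in both kinds of tumor. Lower genes made up 34.5% of all tested in hormone tumors and 33% in sgTrp53 + MYC tumors. Cyp2d26 was at 1987, 2133, 1564, 1703 and 1874 CPM in livers, 149, 195, 162, 238 and 217 CPM in Aldafermin + MYC tumors, 167, 193, 221, 205 and 399 CPM in FGF19 + MYC tumors and 115, 98, 110.3, 129 and 99.9 CPM in sgTrp53 + MYC tumors. The tumors lay below the livers, and the 10 hormone tumors all lay above the 5 sgTrp53 + MYC tumors. Against livers Cyp2d26 had a log2 fold change of -3.12 ± 0.17 (SE) in hormone tumors (adjusted p = 6.1e-12) and -4.07 ± 0.23 (SE) in sgTrp53 + MYC tumors (adjusted p = 1.4e-11). Its promoter is shown because Cyp2d26 was the member with the highest level per length in 11 of the 15 tumors, Cyp2e1 being so in the other 4 and in all 5 livers. It holds the TATA box (as its reverse complement, in capitals) but no CAAAGTCCA (RefSeq, GRCm38.p6, chr15:82794196-82794495, minus strand).
Cyp2d26: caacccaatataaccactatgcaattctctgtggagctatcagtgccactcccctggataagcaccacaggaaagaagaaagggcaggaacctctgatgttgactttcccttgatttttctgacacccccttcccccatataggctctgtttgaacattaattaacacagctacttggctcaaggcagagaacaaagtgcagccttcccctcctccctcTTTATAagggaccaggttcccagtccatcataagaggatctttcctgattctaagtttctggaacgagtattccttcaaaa
Cyp2d22, often taken as the nearest mouse relative of CYP2D6 in function, was at 378 to 485 CPM in livers and 24 to 73.5 CPM in tumors, at least 5.61% of the liver mean in each (log2 fold change -3.65 ± 0.22 (SE), adjusted p = 2.0e-11). Cyp2d9, a testosterone hydroxylase that is male-biased, was low in these female livers at 44.8 to 85.2 CPM and was at 3.9 to 37.7 CPM in tumors (log2 fold change -2.25 ± 0.35 (SE), adjusted p = 1.1e-05). Cyp2d10 in contrast fell by 4.98 on the log2 scale, and by 5.75 in sgTrp53 + MYC tumors, and was named after its values were seen.

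Cyp2e1, which oxidizes ethanol and acetaminophen around the central vein, was the most abundant member of the livers per length and per read. It was at 9351, 11849, 7945, 5499 and 8898 CPM in livers, 15.3, 0.347, 13.8, 837 and 4.01 CPM in Aldafermin + MYC tumors, 31.3, 207, 56.7, 154 and 1369.5 CPM in FGF19 + MYC tumors and 701, 58.2, 222, 25.4 and 20.03 CPM in sgTrp53 + MYC tumors. Every tumor lay below every liver, yet Aldafermin + MYC replicate 4 stood far above the other 4 of its group. The log2 fold change was -5.11 ± 1.23 (SE) in hormone tumors (adjusted p = 9.8e-04) and -5.41 ± 1.67 (SE) in sgTrp53 + MYC tumors (adjusted p = 0.00733). Without the 3 libraries with the highest Clec4f the values were -8.15 and -6.74, so that the size of this change, but not its call, rested on them. The same held in hormone tumors for other members. Without these libraries Cyp1a2 was at -7.25, Cyp2f2 at -8.79, Cyp2j5 at -8.81 and Cyp4f14 at -8.70, whereas Cyp2d26 was at -3.30 and Cyp3a13 at -3.20.

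**Figure D3:**
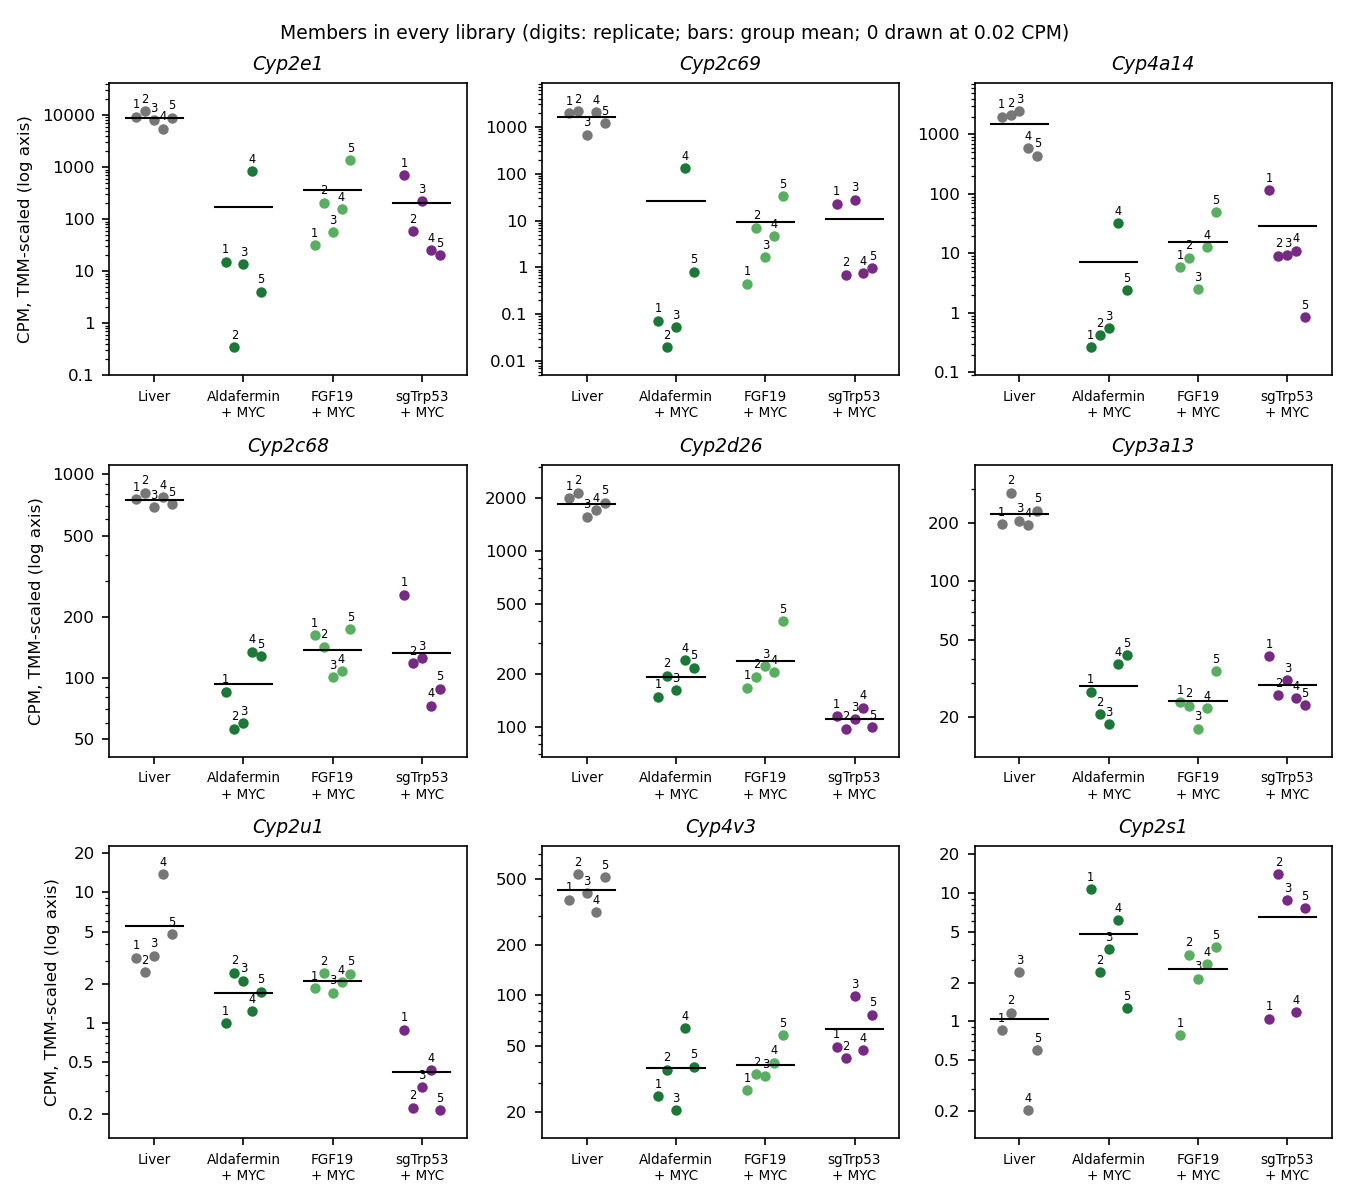
CPM of 9 members in every library on log axes (0 drawn at 0.02), with replicate numbers beside the points and a bar at each group mean. Cyp2e1, Cyp2c69 and Cyp4a14 spread widely among tumors of a group, with Aldafermin + MYC replicate 4 and FGF19 + MYC replicate 5 at the top, whereas Cyp2c68, Cyp2d26 and Cyp3a13 lie in a narrow band below the livers. The hormone tumors lie above the sgTrp53 + MYC tumors in Cyp2d26 and Cyp2u1.

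Of the 8 Cyp2j genes, epoxygenases of arachidonic acid, 3 were tested, all called lower, of which Cyp2j9 had passed through the livers alone. Lower genes made up 34.5% of all tested in hormone tumors and 33% in sgTrp53 + MYC tumors. Cyp2j5, the main hepatic and renal form, was at 737 to 909.6 CPM in livers and 0 to 52.4 CPM in tumors (log2 fold change -6.36 ± 1.14 (SE), adjusted p = 5.2e-05), and Cyp2j6, named after its values were seen, was at 56.4 to 97 CPM and 0.918 to 13.2 CPM (-3.99 ± 0.52 (SE), adjusted p = 9.5e-07). Cyp2r1, the vitamin D 25-hydroxylase, was at 16.6, 16.3, 16.6, 16.7 and 20.7 CPM in livers and 0.0281 to 2.27 CPM in tumors. It had passed the filter through the livers alone, so these levels are a description without a test. Cyp2u1, a hydroxylase of long-chain fatty acids, was scarce throughout, at 3.16, 2.46, 3.27, 13.8 and 4.78 CPM in livers, 0.996, 2.43, 2.11, 1.23 and 1.74 CPM in Aldafermin + MYC tumors, 1.84, 2.4, 1.71, 2.05 and 2.39 CPM in FGF19 + MYC tumors and 0.889, 0.224, 0.323, 0.436 and 0.215 CPM in sgTrp53 + MYC tumors. All tumors lay below the livers, and the hormone tumors lay nearer to them. Its log2 fold change was -1.54 ± 0.38 (SE) in hormone tumors (adjusted p = 0.00118) and -3.71 ± 0.50 (SE) in sgTrp53 + MYC tumors (adjusted p = 2.2e-06). The livers' mean was raised by replicate 4, and without it the values were -0.86 (adjusted p = 0.0243) and -3.03. In hormone tumors this call was lost with library size alone as the scale (-0.67, adjusted p = 0.103). Exons of Cyp2u1 overlap 4930534D22Rik on the other strand, and the strand setting of the counting is not given in the sources used here.

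The Cyp3a genes, on chromosome 5 (GRCm39, chr5:137891193-146050097), handle steroids, bile acids and most drugs, and PXR induces several of them. All 6 tested of 7 were lower in both kinds of tumor, beside 34.5% of all genes in hormone tumors and 33% in sgTrp53 + MYC tumors. Cyp3a11, the main hepatic form, was at 1813, 3484, 3909, 4181 and 4044 CPM in livers, 31.4, 2.33, 41.9, 213 and 114 CPM in Aldafermin + MYC tumors, 17.8, 52.6, 18.8, 78.5 and 241 CPM in FGF19 + MYC tumors and 578, 88.6, 185, 62.9 and 149 CPM in sgTrp53 + MYC tumors. All tumors lay below the livers, and sgTrp53 + MYC replicate 1 was the highest of them. The log2 fold change was -5.43 ± 0.75 (SE) in hormone tumors (adjusted p = 2.3e-06) and -4.04 ± 0.94 (SE) in sgTrp53 + MYC tumors (adjusted p = 8.3e-04), and -6.29 and -4.85 without the 3 libraries. Cyp3a13, which stands apart from the cluster of the other Cyp3a genes, kept more: it was at 197, 286, 206, 195 and 231 CPM in livers, 27.1, 20.7, 18.4, 37.5 and 41.6 CPM in Aldafermin + MYC tumors, 23.9, 22.9, 17.5, 22.4 and 34.5 CPM in FGF19 + MYC tumors and 41.2, 26, 31.1, 25 and 23.1 CPM in sgTrp53 + MYC tumors. The tumors formed a narrow band at 7.85% to 18.7% of the liver mean. Its log2 fold change was -3.07 ± 0.19 (SE) in hormone tumors (adjusted p = 2.9e-11) and -2.93 ± 0.24 (SE) in sgTrp53 + MYC tumors (adjusted p = 2.7e-09). The female-biased Cyp3a16 was at 475, 158, 3.8, 3.21 and 157 CPM in livers, so that livers 3 and 4 lay within the tumor range of 0.213 to 29.1 CPM, although the test called it lower (log2 fold change -4.73 ± 0.90 (SE), adjusted p = 9.8e-05, and -3.75 without liver replicate 1). Cyp3a44, likewise female-biased, was lowest in the same livers, at 499.9, 203, 22.2, 33.7 and 151 CPM, and at 0 to 6.4 CPM in tumors.

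The Cyp4a genes, fatty acid omega-hydroxylases under PPARα, included the member with the lowest fold change in hormone tumors. Cyp4a14 was at 1989, 2116, 2453, 596 and 439.8 CPM in livers, 0.267, 0.422, 0.56, 32.4 and 2.44 CPM in Aldafermin + MYC tumors, 5.8, 8.52, 2.51, 12.8 and 49 CPM in FGF19 + MYC tumors and 116, 9.14, 9.25, 11.1 and 0.844 CPM in sgTrp53 + MYC tumors. Livers 4 and 5 were well below the others yet still above every tumor. The log2 fold change was -7.16 ± 1.15 (SE) in hormone tumors (adjusted p = 1.5e-05) and -5.70 ± 1.47 (SE) in sgTrp53 + MYC tumors (adjusted p = 0.00189). Cyp4a10 followed it, at 618 to 1904 CPM in livers, 0.316 to 73.8 CPM in tumors and -6.59 ± 1.19 (SE) in hormone tumors (adjusted p = 5.6e-05). Without the 3 libraries Cyp4a14 was at -9.18 and -7.65 and Cyp4a10 at -9.29 and -7.22 in hormone and sgTrp53 + MYC tumors. All 4 PPARα-linked members tested were lower, with a median of -6.12 in hormone tumors and -5.21 in sgTrp53 + MYC tumors. The share of all genes tested that were lower was 34.5% and 33% in these comparisons. Cyp4a32 and Cyp4b1 overlap in their exons on opposite strands, which the counting may not have kept apart.

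In the Cyp4f subfamily, 4 of 6 tested were lower in hormone tumors and 5 of 6 in sgTrp53 + MYC tumors. The share of all genes tested that were lower was 34.5% and 33% in these comparisons. Cyp4f14, which hydroxylates leukotriene B4 and vitamin E, was at 392 to 652 CPM in livers and 0 to 48.2 CPM in tumors (log2 fold change -5.75 ± 1.28 (SE), adjusted p = 4.8e-04). Cyp4f13 kept 6.07% to 15.7% of the liver mean in every tumor (log2 fold change -3.41 ± 0.19 (SE), adjusted p = 1.0e-11). Cyp4f16, also named after its values were seen, was at 4.14 to 9.63 CPM in livers and 0.752 to 6.8 CPM in tumors with overlap, at -0.75 ± 0.36 (SE) in hormone tumors (adjusted p = 0.0676) and -1.41 ± 0.43 (SE) in sgTrp53 + MYC tumors (adjusted p = 0.00723, and -2.07 without replicate 2). Its sgTrp53 + MYC call held in 8 of 9 alternative settings, with values from -1.58 to -0.51 and a largest adjusted p of 0.3. Cyp4f18, a leukotriene hydroxylase of neutrophils and other leukocytes, was at 1.02 to 1.94 CPM in livers and 0.749 to 6.35 CPM in tumors, and its difference of 0.67 ± 0.39 (SE) did not pass the test (adjusted p = 0.124). The 5 neutrophil markers (S100a8, S100a9, Retnlg, Ly6g and Mpo) summed to 0.663 to 2.43 CPM in livers and 1.02 to 23.3 CPM in tumors, and their part in Cyp4f18 was not tested. Cyp4v3, whose human counterpart is mutated in a crystalline dystrophy of the retina, was at 374, 531, 408, 314 and 512 CPM in livers, 24.8, 35.9, 20.5, 63.8 and 37.4 CPM in Aldafermin + MYC tumors, 27.1, 33.7, 32.8, 39.5 and 57.8 CPM in FGF19 + MYC tumors and 49.2, 41.9, 99, 46.9 and 76.6 CPM in sgTrp53 + MYC tumors. All tumors lay below the livers, at -3.52 ± 0.25 (SE) in hormone tumors (adjusted p = 2.0e-10) and -2.77 ± 0.31 (SE) in sgTrp53 + MYC tumors (adjusted p = 2.1e-07). Cyp4f15 was at 225 to 306 CPM in livers and 0.0307 to 22.7 CPM in tumors (-5.82 ± 1.05 (SE), adjusted p = 5.7e-05, and -8.20 without the 3 libraries). Cyp4b1, mainly a lung form, was at 18.1 to 33 CPM in livers and 0.243 to 7.31 CPM in tumors, and was lower at -3.03 ± 0.47 (SE) (adjusted p = 8.5e-06).

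The lists by regulation and zone gave like counts, beside 34.5% and 33% of all genes lower in hormone and sgTrp53 + MYC tumors. Of the CAR and PXR targets 9 of 9 tested were lower in both kinds of tumor, Cyp2c55 through its liver level alone, with a median of -5.44 in hormone tumors and -4.78 in sgTrp53 + MYC tumors. Of the pericentral members 9 of 9 were lower (median -5.43 and -5.48), and the periportal Cyp2f2 was lower too. Of the 8 female-biased members all were lower, Cyp2g1 through its liver level alone (median -6.09 and -6.47), as was the male-biased Cyp2d9 at -2.25 and -2.67. Of 11 omega-hydroxylases 9 were lower in hormone tumors and 10 in sgTrp53 + MYC tumors. Of the 7 members found mainly outside hepatocytes 5 were tested, of which 2 were lower (Cyp2j6 and Cyp4b1), 1 was higher (Cyp2s1) and 2 were not called (Cyp1b1 and Cyp4f18). The 20 members not tested had at most 63 counts in any library. Cyp2c66, Cyp2j7, Cyp2j11, Cyp2t4 and Cyp4a29 had 0 counts in all 20 libraries, and a count of 0 allows up to 3 counts in each. The filter was also missed by Cyp4x1, a form of brain and other tissues, which reached at most 0.0558 CPM in any tumor. Cyp2w1, seen in fetal gut and some tumors, was at most 0.0842 CPM in any tumor.

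The partners of the enzymes were lower as well. All 6 genes of electron transfer and heme supply were lower in both kinds of tumor, with a median of -2.27 in hormone tumors and -2.19 in sgTrp53 + MYC tumors. Of all genes tested, 34.5% and 33% were lower in these comparisons. Por, the reductase that feeds all microsomal P450 enzymes, was at 944 ± 233 CPM (n = 5, SD) in livers, 179 ± 34.8 CPM (n = 5, SD) in Aldafermin + MYC tumors, 170.2 ± 51.2 CPM (n = 5, SD) in FGF19 + MYC tumors and 159 ± 29.8 CPM (n = 5, SD) in sgTrp53 + MYC tumors (log2 fold change -2.44 ± 0.17 (SE) in hormone tumors, adjusted p = 2.2e-10). Alas1, the first enzyme of heme synthesis, changed most of the 6, at -3.51 ± 0.28 (SE) (adjusted p = 1.0e-09). Of 12 regulators 11 were tested, of which 11 were lower in hormone tumors and 8 in sgTrp53 + MYC tumors, beside the same 34.5% and 33% of all genes. Those not called in sgTrp53 + MYC tumors were Arnt, Stat5b and Bcl6. In hormone tumors Arnt and Stat5b were both at -0.52 and Bcl6 at -1.11 (adjusted p = 0.0494). The receptor genes Nr1i3 (CAR), Ppara and Ahr were at -4.84 ± 0.41 (SE), -3.26 ± 0.27 (SE) and -2.96 ± 0.25 (SE) in hormone tumors (adjusted p = 2.6e-09, 2.2e-09 and 2.7e-09), whereas Nr1i2 (PXR) was at -1.42 ± 0.16 (SE) (adjusted p = 1.3e-07). Hnf4a was at 1073 ± 25.8 CPM (n = 5, SD) in livers and 268.6 to 621.8 CPM in tumors, at -1.11 ± 0.16 (SE) (adjusted p = 5.3e-06). Cux2, a female-biased repressor of male genes in mouse liver, was at -4.95 ± 0.59 (SE) (adjusted p = 2.9e-07).

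Because the members fell to different depths, the make-up of the remaining P450 transcripts differed from that of livers. Levels are compared here per length, as TMM-scaled CPM per kilobase of exon. The length is that of all annotated exons of a gene joined, and the ranks depend on this choice. For Cyp3a11 it was 5207 bases, whereas its longest transcript has 2802. Cyp3a11 ranked 6 per length but 2 by CPM in livers, and 4 per length but 1 by CPM in sgTrp53 + MYC tumors. In livers the leading members by this measure were Cyp2e1 (3084), Cyp2a4 (1375) and Cyp2d26 (879). In Aldafermin + MYC tumors they were Cyp2d26 (91.3), Cyp2e1 (61.7, nearly all from replicate 4) and Cyp2c68 (35.3), in FGF19 + MYC tumors Cyp2e1 (128.8), Cyp2d26 (112.4) and Cyp2c68 (52.2), and in sgTrp53 + MYC tumors Cyp2e1 (72.7), Cyp2d26 (52.4) and Cyp2c68 (50.3). The Cyp2e1 means also rested largely on FGF19 + MYC replicate 5 (1369.5 CPM, next 207) and sgTrp53 + MYC replicate 1 (701 CPM, next 222). Library by library, Cyp2d26 led in 11 tumors and Cyp2e1 in 4. The Cyp2d subfamily made up 9.52% ± 0.95 (n = 5, SD) of the summed level per length in livers, 41.2% ± 16.4 (n = 5, SD) in Aldafermin + MYC tumors, 30.6% ± 10.9 (n = 5, SD) in FGF19 + MYC tumors and 21.3% ± 9.68 (n = 5, SD) in sgTrp53 + MYC tumors. The lowest tumor share, 8.91% in sgTrp53 + MYC replicate 1, lay within the liver range of 8.51% to 10.9%, and the other 14 tumors lay above it. Cyp2d26 alone made up 6.13% ± 0.684 (n = 5, SD) in livers and 36.3% ± 15.9 (n = 5, SD) in Aldafermin + MYC tumors. The Cyp2a share was 17.3% ± 2.06 (n = 5, SD) in livers and 0.473% to 14.6% in tumors, all below the lowest liver at 15.2%. Cyp2e1 made up 21% ± 2.38 (n = 5, SD) in livers and 0.0705% to 28.7% in tumors, where the 3 libraries with the highest Clec4f lay above every liver and the other 12 below every liver. The Cyp4v share was 0.758% ± 0.106 (n = 5, SD) in livers and 5.05% ± 2.53 (n = 5, SD) in sgTrp53 + MYC tumors.

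**Figure D4:**
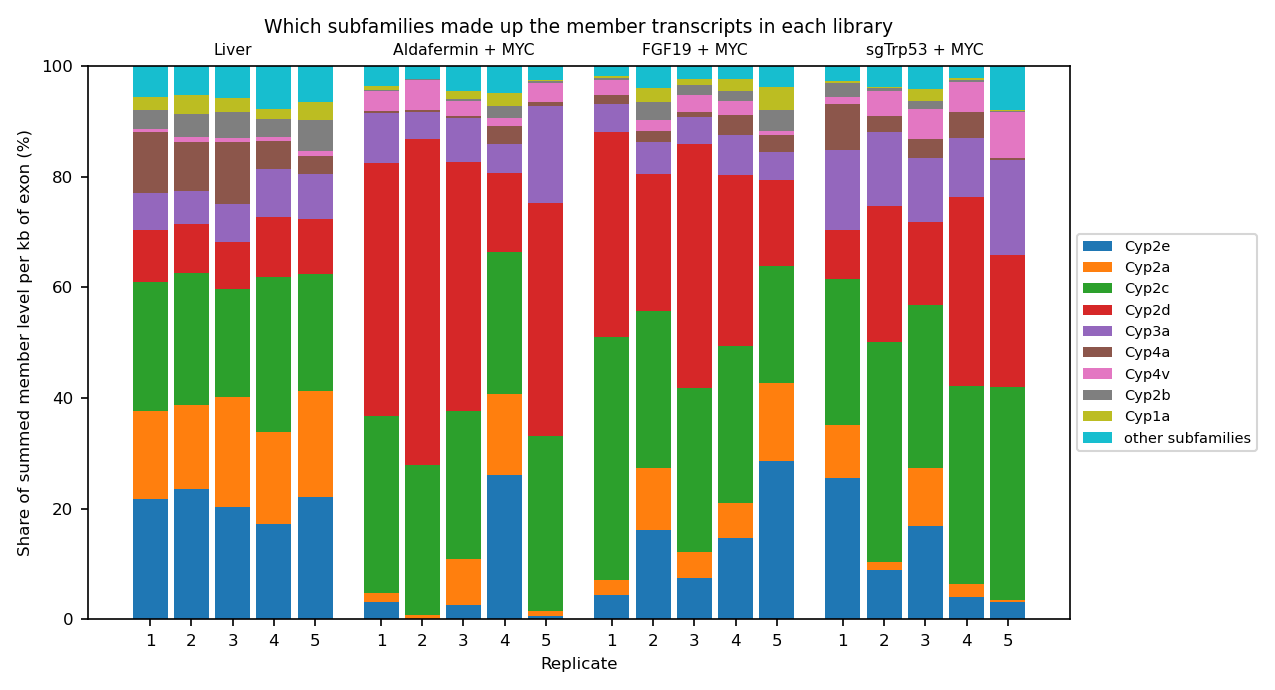
Share of each subfamily in the summed level of all 76 members per kilobase of exon (vertical axis, percent), in each library by group and replicate. Most tumors have larger Cyp2d (red) and smaller Cyp2e and Cyp2a (blue and orange) shares than livers, whereas Aldafermin + MYC replicate 4, FGF19 + MYC replicate 5 and sgTrp53 + MYC replicate 1 keep a Cyp2e share above that of every liver.

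Few members were called between hormone tumors and sgTrp53 + MYC tumors. Of the 56 tested, 2 were higher (Cyp2d26 and Cyp2u1) and 2 lower (Cyp2c55 and Cyp4v3) in hormone tumors, where of all genes tested 11.6% were higher and 12.1% lower (23.7% in either direction). Cyp2d26 was higher by 0.95 ± 0.18 (SE) on the log2 scale (adjusted p = 0.00117), with 10 of 10 hormone tumors above all 5 others. Cyp2u1 was higher by 2.17 ± 0.44 (SE) (adjusted p = 0.00174), again with 10 of 10 above. Both calls held in every alternative fit, but no fit changed how reads were assigned to genes. Exons of Cyp2u1 overlap 4930534D22Rik on the other strand. Reads that fell on several genes made up a larger share in the sgTrp53 + MYC libraries than in the others. Their part in the Cyp2u1 difference was not tested. The call of Cyp4v3 (-0.75 ± 0.25 (SE), adjusted p = 0.035) was lost in 7 of the 15 fits that left out 1 tumor, with a largest adjusted p of 0.151 without sgTrp53 + MYC replicate 3. Cyp2c55, a CAR-linked gene named after its values were seen, was at 0.17, 0.0248, 0.454, 0.308 and 2.05 CPM in Aldafermin + MYC tumors, 0.167, 0.182, 0, 0.352 and 0.457 CPM in FGF19 + MYC tumors and 0.692, 0.504, 2.02, 1.42 and 2.15 CPM in sgTrp53 + MYC tumors. Cyp2c55 had passed the filter through the livers alone. The groups overlapped, and its call (-1.83 ± 0.65 (SE), adjusted p = 0.0471) was lost in 11 of those 15 fits (the value was -2.54 without Aldafermin + MYC replicate 5), with a largest adjusted p of 0.120 without sgTrp53 + MYC replicate 5.

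Many of the other members had wide intervals in this comparison. For Cyp2e1 the difference was 0.29 (95% interval -2.24 to 2.83), and for Cyp4a14 -1.46 (-3.56 to 0.65). Members with an even level had narrow ones, such as Cyp3a13 with -0.14 (-0.55 to 0.27) and Cyp2d22 with 0.16 (-0.31 to 0.63). The count of called members ran from 2 to 11 as single libraries were left out. Without Aldafermin + MYC replicate 4, 11 of 56 members were called, 2 higher and 9 lower. In that fit 11.2% of all genes were higher and 11.5% lower (22.7% in either direction). Without the 3 libraries with the highest Clec4f the member counts were likewise 2 higher and 9 lower, beside 11.8% and 11.6% of all genes (23.4%). In the latter fit Cyp2f2 was at -2.14 (adjusted p = 0.0493), Cyp2c69 was at -3.08 (adjusted p = 0.0278), Cyp4a10 at -2.07 (0.026), Cyp4a32 at -2.38 (0.0225), Cyp2c40 at -2.27 (0.00572), Cyp2c39 at -2.62 (0.00295) and Cyp2j9 at -2.56 (0.001), all lower in hormone tumors. With all libraries none of these 7 passed, and they were chosen after their values were seen. Cyp2c39 and Cyp2j9 had passed the filter through the livers alone and were near 0 in tumors. Cyp2c39 had 42 and 59 counts in all over the Aldafermin + MYC and FGF19 + MYC libraries, and Cyp2j9 had 14 and 27. The log2 ratio of the summed member level between hormone and sgTrp53 + MYC tumors was 0.09, and it ran from -0.36 to 0.67 as single libraries were left out.

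Aldafermin + MYC and FGF19 + MYC tumors, that is the analog and the hormone itself, were compared to ask whether they left the same P450 pattern. None of the 56 tested members was called by edgeR's quasi-likelihood test, where 0% of all genes were, and none by the likelihood ratio test or by DESeq2. At an unadjusted p under 0.05 there were 4, Cyp1a1 (-2.50 ± 1.02 (SE)), Cyp1b1 (1.24 ± 0.52 (SE)), Cyp2d9 (-0.92 ± 0.43 (SE)) and Cyp4a31 (-1.75 ± 0.79 (SE)), with adjusted p of 0.562 to 0.665. In 42 of the 56 the fold change was negative, that is, lower in Aldafermin + MYC tumors, with a median of -0.46 against 0.02 over all genes. The members are not independent of each other, and the share of negative fold changes over all genes is not given here. As single libraries were left out, the log2 ratio of summed member CPM ran from -1.55 to 0.24. The lack of calls does not show that the groups are alike: the 95% interval of Cyp2e1 ran from -3.99 to 1.86. That of Cyp4a14 ran from -3.71 to 1.43. For evenly expressed members it was narrower, from -0.73 to 0.12 for Cyp2d26, -0.86 to 0.22 for Cyp2d22, -0.21 to 0.74 for Cyp3a13 and -0.68 to 0.55 for Cyp4v3. Without the 3 libraries with the highest Clec4f, 1 member was called lower in Aldafermin + MYC tumors, the pericentral Cyp2c37, chosen after its values were seen. It was at -5.7 there, with an SE of 1.0 and an adjusted p of 0.0309. The share of all genes called in that fit is not given here. With all libraries Cyp2c37 was at -2.35 ± 1.53 (SE) (adjusted p = 0.842). It was at 0.389, 0.347, 0.347, 49.8 and 0.14 CPM in Aldafermin + MYC tumors and 6.47, 32.7, 6.37, 19.1 and 194 CPM in FGF19 + MYC tumors. The groups overlapped through replicate 4 of the first group.

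**Figure D5:**
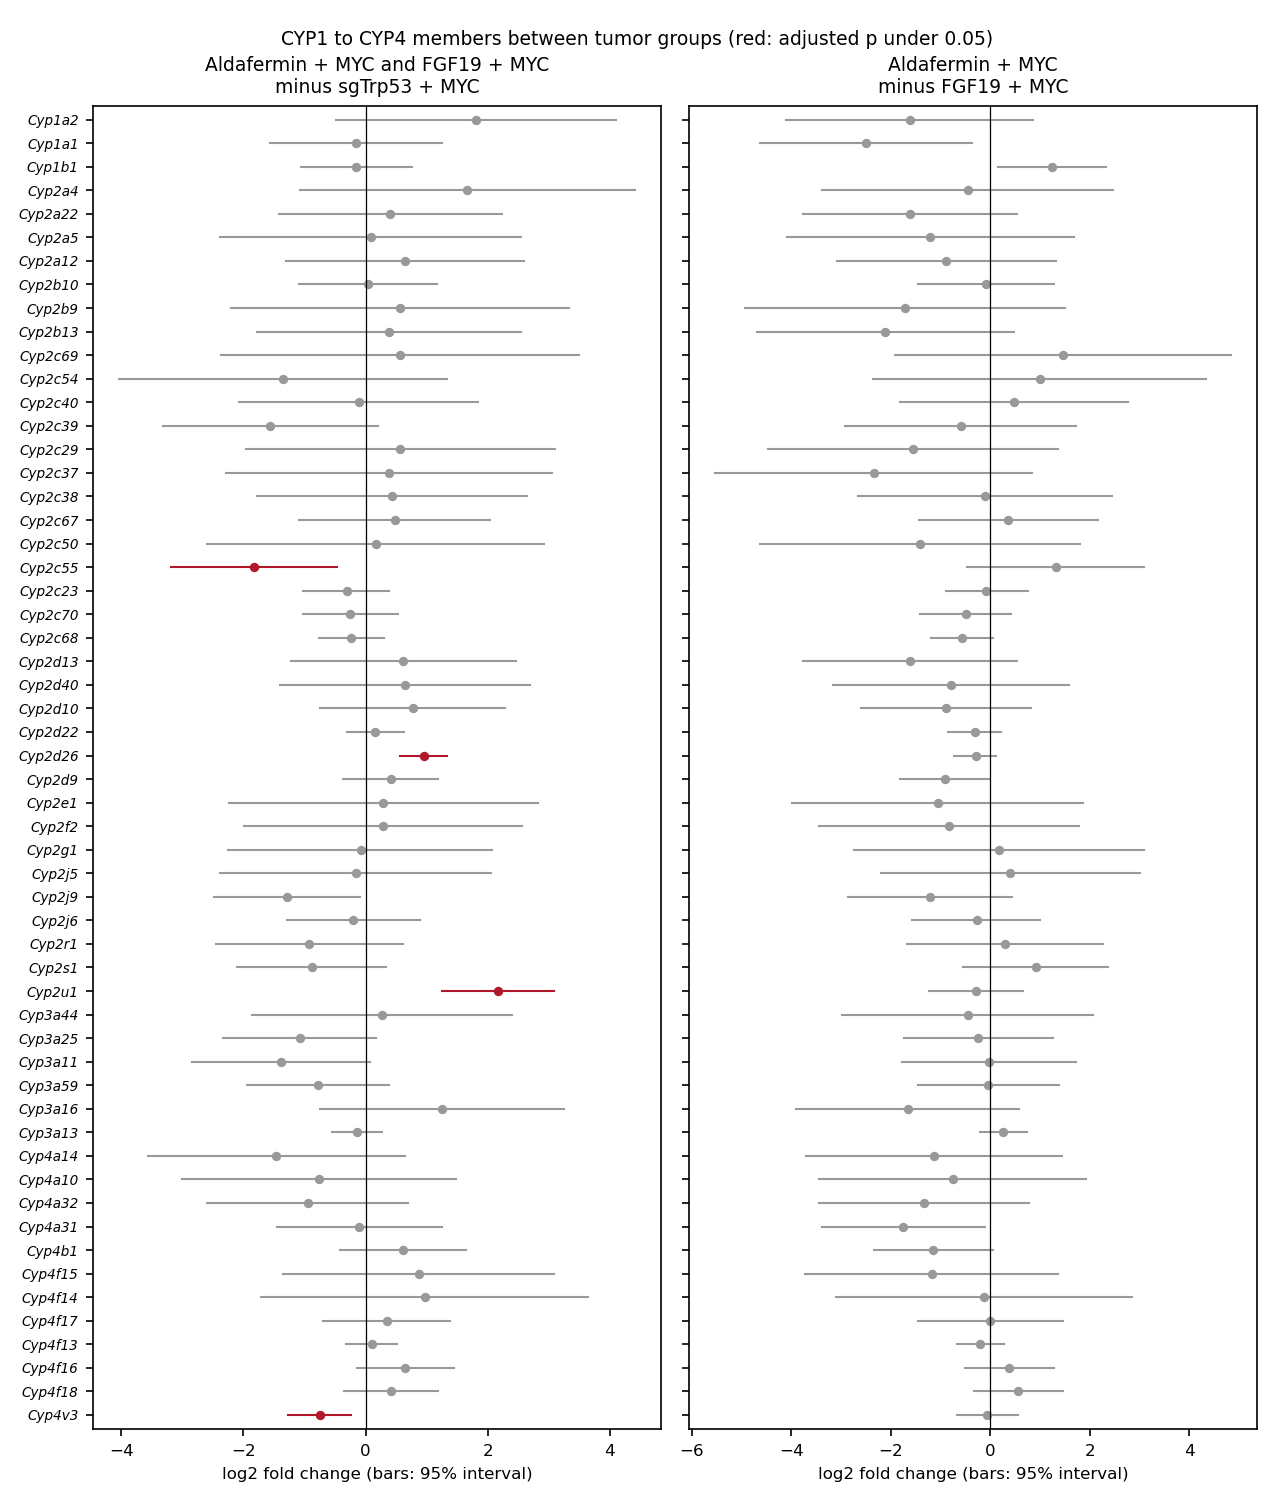
Log2 fold change of each tested member with its 95% interval between hormone and sgTrp53 + MYC tumors (left) and between Aldafermin + MYC and FGF19 + MYC tumors (right), members in the same order on both sides. Red marks the 4 members with an adjusted p under 0.05, all on the left (Cyp2c55, Cyp2d26, Cyp2u1 and Cyp4v3), and the intervals of most other members include 0.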

How the data were processed

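The libraries were made with a stranded mRNA kit, and per the study's methods the authors aligned the reads to mouse Mm39 with HISAT2 and deposited raw counts per gene made with htseq-count and RefSeq annotation, as 1 table for 15 libraries and another for the sgTrp53 + MYC libraries. The submitters' processing notes also name bcl2fastq 2.20.0.422. The strand setting of the counting is not given in the sources used here. Columns of other samples left out numbered 0. Summary lines (reads on no gene, on several genes or not aligned), 33.7% to 56.2% of the reads, were kept out of library sizes and tests. No pair of libraries agreed within sampling noise (lowest chi-square per degree of freedom 13.94). In edgeR 4.0.16 (R 4.3.3, limma 3.58.1), counts were scaled by TMM, genes reaching 1 CPM in 5 or more libraries were kept, and 1 quasi-likelihood model of the 4 groups was fitted, with Benjamini-Hochberg adjustment over all 14333 genes and a threshold of 0.05. Log2 fold changes have SE or 95% intervals from that model. Hormone tumors are the mean of their 2 groups. The tests were checked on simulated counts. Alternatives were the likelihood ratio test, DESeq2 1.42.0, its size factors, library size alone, other filters, only the groups compared, a replicate block and leaving out each library.

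The members and lists were chosen with earlier results of these data known. Members were named by rule: the 6 highest and 6 lowest called fold changes per comparison with at least 10 CPM in a group, the 5 most abundant per group, those higher in tumors, any called between the hormone groups, and 25 with textbook roles. Positions and exon lengths are from GENCODE on GRCm39 and promoters from RefSeq on GRCm38.p6. Shares of 150-base transcript windows found in other members measure shared sequence. 1 hepatocyte marker and 1 regulator are not reported here. The mice of a group were independent per the study's methods.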

Additional observations from a re-analysis of the deposited data

Results flagged for a closer look

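For each named member in each group of 5 libraries, the gap between the highest or the lowest library and the nearest other was divided by the range of the group. Dixon's 95% critical value is made for normally distributed values, whereas these were untransformed CPM of genes that are not independent. The gap passed this value in 50 of 132 such groups, a count that is a description only. Most of these libraries were the ones described above as standing apart, 17 in Aldafermin + MYC replicate 4, 20 in FGF19 + MYC replicate 5 and 7 in sgTrp53 + MYC replicate 1, and in each case the library was the highest of its group. Their CPM values follow in parentheses. In Aldafermin + MYC replicate 4 the members were Cyp1a2 (51.7), Cyp2a4 (162), Cyp2a5 (99.6), Cyp2c29 (82.1), Cyp2c69 (130.0), Cyp2d22 (46.6), Cyp2d9 (24.2), Cyp2e1 (837), Cyp2f2 (73.2), Cyp2g1 (0.884), Cyp2j5 (52.4), Cyp2r1 (1.46), Cyp4a10 (46.1), Cyp4a14 (32.4), Cyp4f13 (16), Cyp4f14 (48.2) and Cyp4f15 (13.8). In FGF19 + MYC replicate 5 they were Cyp1a2 (139.6), Cyp2a4 (155), Cyp2a5 (223), Cyp2c29 (195), Cyp2c69 (33.3), Cyp2d22 (73.5), Cyp2d26 (399), Cyp2d9 (37.7), Cyp2e1 (1369.5), Cyp2f2 (107), Cyp2g1 (0.492), Cyp2j5 (30.5), Cyp2r1 (0.949), Cyp3a11 (241), Cyp3a16 (29.1), Cyp3a25 (50.4), Cyp4a10 (55.3), Cyp4a14 (49), Cyp4f14 (38.5) and Cyp4f15 (22.7). In sgTrp53 + MYC replicate 1 they were Cyp2a5 (137), Cyp2c68 (256), Cyp2r1 (2.27), Cyp3a11 (578), Cyp3a25 (73.2), Cyp4a10 (73.8) and Cyp4a14 (116). Cyp2a4 was highest in sgTrp53 + MYC replicate 3 at 45.3 CPM, against 11.6 CPM in the next library. Cyp2r1 was highest in liver replicate 5 at 20.7 CPM, against 16.7 CPM in the next library. Cyp2u1 was highest in liver replicate 4 at 13.8 CPM, against 4.78 CPM in the next library. Cyp3a44 was highest in sgTrp53 + MYC replicate 3 at 5.73 CPM, against 0.972 CPM in the next library. Cyp4f15 was highest in liver replicate 2 at 306 CPM, against 239 CPM in the next library. Cyp4f18 was highest in Aldafermin + MYC replicate 3 at 6.35 CPM, against 2.04 CPM in the next library.

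The difference between hormone tumors and sgTrp53 + MYC tumors passed the test of that difference in 4 members. Cyp2d26 (0.95 on the log2 scale) and Cyp2u1 (2.17) were higher in hormone tumors, and Cyp2c55 (-1.83) and Cyp4v3 (-0.75) were lower. The sgTrp53 + MYC libraries came as a separate table, and table and group cannot be told apart.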

How the results depend on the processing

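Against livers the member counts stayed within 1.5 times of the values given: 50 to 58 members were called in hormone tumors and 50 to 58 in sgTrp53 + MYC tumors under another test, scaling, filter or choice of samples, against 53 and 54. The number called higher ran from 0 to 3 and from 1 to 3, with 3 in both under library size alone and 0 in hormone tumors without Aldafermin + MYC replicate 1 or liver replicate 1, 4 or 5. Counts between tumor groups moved further. Hormone against sgTrp53 + MYC tumors gave 4 called members, 2 in a fit of only the groups compared, 11 without the 3 libraries with the highest Clec4f, and 2 to 11 as single libraries were left out (11 without Aldafermin + MYC replicate 4, and 2 without Aldafermin + MYC replicate 1 or 3, FGF19 + MYC replicate 1, 2 or 3, or sgTrp53 + MYC replicate 3 or 5). The number of subfamilies called there ran from 1 to 4 as single libraries were left out. Aldafermin + MYC against FGF19 + MYC gave 0, and 1 without the 3 libraries. The log2 ratio of summed member CPM between sgTrp53 + MYC tumors and livers was -4.12 with library size alone as the scale. As single libraries were left out, this ratio ran from -0.36 to 0.67 between hormone and sgTrp53 + MYC tumors and from -1.55 to 0.24 between Aldafermin + MYC and FGF19 + MYC tumors. The cause was not tested.

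Signs turned for members that had not been called. Cyp4f16 in hormone tumors against livers was at 0.11 with library size alone. Between hormone and sgTrp53 + MYC tumors, Cyp2c69 was at -2.19 with the replicate block and -3.08 without the 3 libraries, and as single libraries were left out it ran from -2.85 to 1.31, Cyp2c40 from -2.03 to 0.41, Cyp2c54 from -4.34 to 1.32, Cyp4a10 from -2.81 to 0.63 and Cyp4a14 from -2.94 to 0.49. Replicate numbers come from the titles of different mice and do not pair the libraries, since deviations of same-numbered libraries from their group means correlated at -0.33 to 0.33, and the replicate block left the member counts at 53, 54, 4 and 0. Depth limits the members with few reads: those not tested had at most 63 counts in any library.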

Other observations

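Among the 52 members that were lower in hormone tumors, those with the deeper fold change also varied more among the 15 tumors. Spearman's rho between the log2 fold change against livers and the SD of log2(CPM + 0.05) over the tumors was -0.67 across these genes. The 52 include the 6 members that passed the filter through the livers alone. Both quantities use the same tumor levels, and the added 0.05 affects the SD of members near 0. The points share the same libraries and genes are not independent replicates, so the value is a description only.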
